A study of Mus musculus with 12 samples.

Results

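The 47 genes described here encode transcription factors that mark levels and neuron classes of the brain and lie outside the Hox clusters. They were taken as a list of symbols, and all 47 were found among the 52459 genes of the count tables. By their best-known roles they were divided into 7 cortical and dorsal telencephalic factors, 8 ventral forebrain and hypothalamic factors, 11 midbrain and isthmus factors, 11 factors of brainstem and diencephalic neuron subtypes and 10 cerebellar factors. Many of them act in more than a single region, so the division orders the text and was not used in any test. RNA-seq libraries were made from tissue of the cerebellum (Cb) and of the forebrain/midbrain (F/M), with 3 libraries in each of 4 groups. The T groups (F/M-T and Cb-T) were male mice 4 months of age homozygous for a targeted disruption of *Tpp1* (*Tpp1*-/-), the gene of the lysosomal protease TPP1 that is lost in late infantile neuronal ceroid lipofuscinosis. The N groups (F/M-N and Cb-N) were wild-type male siblings of the same age. The gene is disrupted in all cells, the line is kept by crossing heterozygotes, and the sources used here do not say whether a Cb and an F/M library of the same number came from the same mouse. The RNA was of tissue and not of sorted cells, so a library holds every cell type and subregion that the dissection included.

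Regional transcription factors divide the embryonic neural tube into territories, and each territory then forms its own neuron classes. Cortical precursors use factors such as EMX and LHX2, the ventral forebrain uses DLX factors, engrailed and PAX factors pattern the midbrain-hindbrain boundary (the isthmus), and the rhombic lip and ventricular zone of the cerebellum form granule and Purkinje cells. Many of these genes stay on in adult neurons of the region where they acted, which makes them labels of the brain level that a tissue sample holds.

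The libraries had 21428379 to 24458189 counts on genes. At that depth 3 counts of a gene, the floor used here, corresponded to 0.121 to 0.139 CPM (counts scaled to the size of each library, by the TMM method over all 12 libraries), and this floor covers counting error only. *Tpp1* stood at 112 to 114 CPM over the Cb-N libraries and 28 to 31 CPM in the Cb-T libraries, and 87.7 to 94.3 against 21.8 to 23.9 CPM in F/M. The areas carried their own markers. The summed level of 6 granule cell genes was 5620 to 5720 CPM in Cb-N and 92.4 to 97.3 CPM in F/M-N, and that of 8 forebrain neuron genes was 357 to 373 CPM in Cb-N and 4770 to 4840 CPM in F/M-N.

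Promoters of 4 of the factors are shown because these genes stand for the patterns described below: *Pou4f1* and *Pou4f2*, near absent from Cb-N and present in Cb-T, *Tlx3*, present in Cb and near absent from F/M, and *Dlx2*, without a read in Cb. Each is the 250 bases before the start of the gene on GRCm38.p6, from the RefSeq promoter table, read 5′ to 3′ on the gene's strand. Capitals mark the GC box GGGCGG and the CCAAT motif, each searched on both strands, and neighbouring matches that overlap run together.
*Pou4f1* promoter, chr14:104468000-104468249, minus strand: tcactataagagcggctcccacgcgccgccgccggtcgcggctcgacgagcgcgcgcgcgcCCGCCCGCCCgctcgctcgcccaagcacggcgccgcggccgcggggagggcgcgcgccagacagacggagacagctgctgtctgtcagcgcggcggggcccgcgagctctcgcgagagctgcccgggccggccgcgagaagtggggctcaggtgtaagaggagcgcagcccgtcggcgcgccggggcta
*Pou4f2* promoter, chr8:78436648-78436897, minus strand: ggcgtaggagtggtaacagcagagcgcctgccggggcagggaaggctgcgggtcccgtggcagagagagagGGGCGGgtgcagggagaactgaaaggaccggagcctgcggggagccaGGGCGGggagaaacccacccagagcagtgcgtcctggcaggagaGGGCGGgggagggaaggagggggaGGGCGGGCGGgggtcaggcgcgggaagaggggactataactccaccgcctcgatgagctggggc
*Tlx3* promoter, chr11:33203589-33203838, minus strand: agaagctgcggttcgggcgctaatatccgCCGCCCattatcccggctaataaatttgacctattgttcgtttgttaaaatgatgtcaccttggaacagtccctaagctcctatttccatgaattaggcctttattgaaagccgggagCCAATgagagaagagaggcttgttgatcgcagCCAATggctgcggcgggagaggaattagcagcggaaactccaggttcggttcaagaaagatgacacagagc
*Dlx2* promoter, chr2:71546755-71547004, minus strand: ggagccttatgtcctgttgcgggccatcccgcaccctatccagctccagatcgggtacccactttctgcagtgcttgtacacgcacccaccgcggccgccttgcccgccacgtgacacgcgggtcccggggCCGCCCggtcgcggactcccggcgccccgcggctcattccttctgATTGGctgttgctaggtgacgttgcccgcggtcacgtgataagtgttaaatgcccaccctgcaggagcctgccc
The *Pou4f1* window is the richest in CpG of the 39 members with a window, with 47 CpG dinucleotides, and *Pou4f2*, *Tlx3* and *Dlx2* have 17, 13 and 24. Over those 39 members the median was 15 CpG per window (range 4 to 47) with a GC content of 61.2%, and over all 27025 windows of the table it was 6 CpG with a GC content of 52%. A GC box stood in 22 of the 39 windows (56.4%, against 32.9% of all windows) and CCAAT in 19 (48.7% against 34.5%). TATAAA stood in 3 (7.69% against 13%) and the homeodomain core TAATTA, which is its own reverse complement, in 2 (5.13% against 4.9%). *Otx1*, *Dlx5*, *Dlx6*, *En2*, *Lbx1*, *Lhx5*, *Foxp2* and *Irx1* had no entry. A match describes the letters only, and no relation of the motifs to the changes in T libraries was examined.

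**Figure D1:**
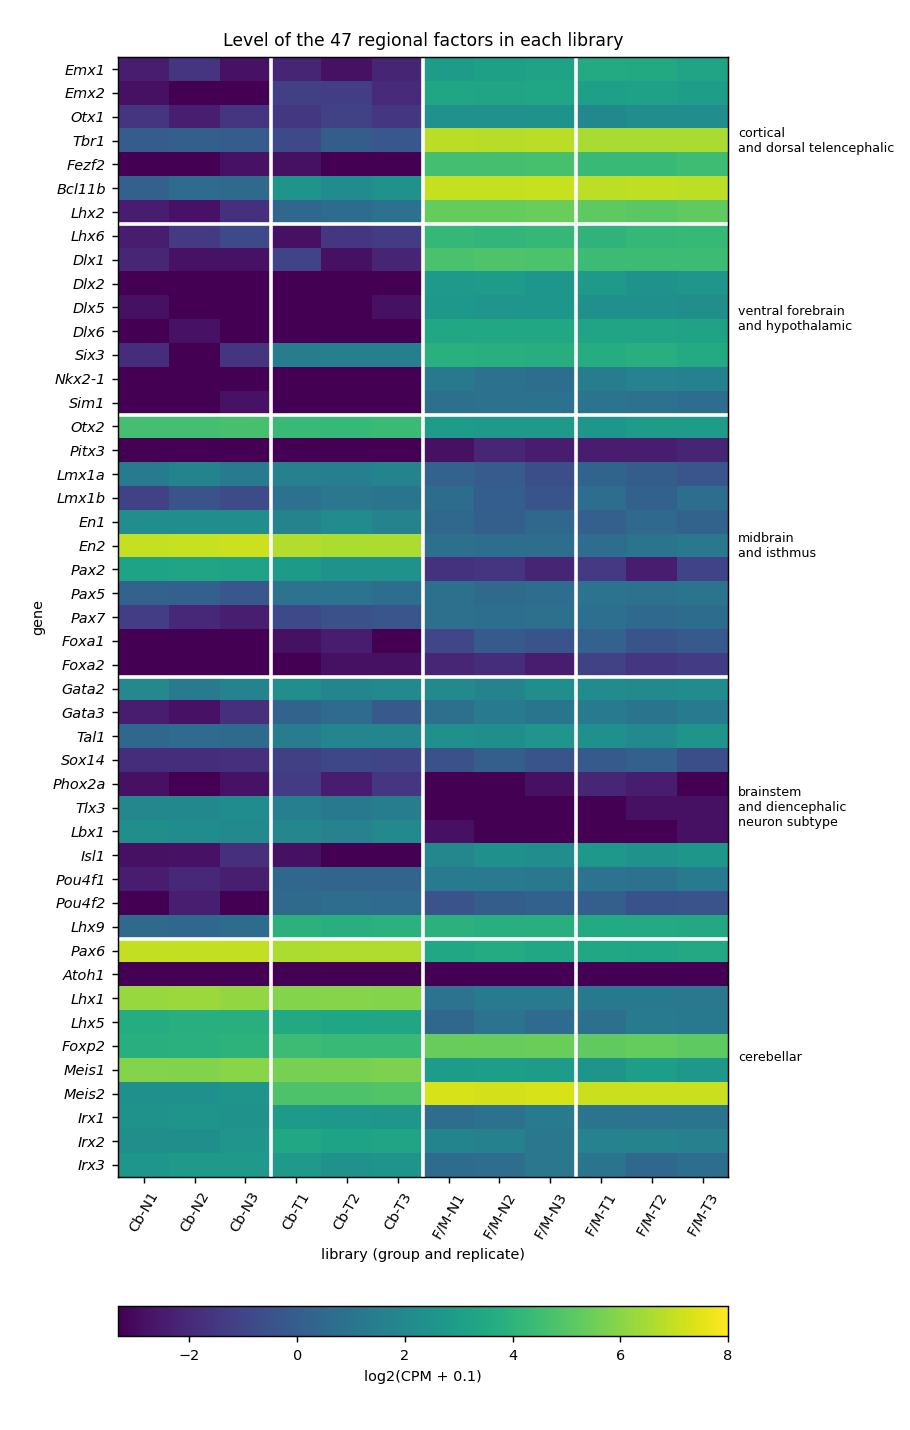
Level of each of the 47 factors in each of the 12 libraries, as log2(CPM + 0.1), with genes in rows grouped by role and libraries in columns grouped by area and genotype. Cortical and ventral forebrain factors are dark in Cb and bright in F/M, and *Six3*, *Lhx9*, *Pou4f1* and *Pou4f2* are brighter in the 3 Cb-T libraries than in the 3 Cb-N libraries.

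The comparison of Cb-N with F/M-N asked where each factor is expressed in the control brain, which sets the scale for what follows. A gene was called a DEG when its FDR was under 0.1 and it changed by 1.5-fold or more. FDRs and adjusted p values are those of the quasi-likelihood test of edgeR, adjusted by the Benjamini-Hochberg method across all genes tested. Of the 47 factors, 42 were tested and 41 were called, 14 with more RNA in Cb-N and 27 with more in F/M-N, beside 42% of all tested genes called (19.2% with more in Cb-N and 22.8% with more in F/M-N). Of the 42, 20 passed the filter on low counts through F/M-N alone and 3 (*Pax2*, *Tlx3* and *Lbx1*) through Cb-N alone. The filter thus favoured the direction that these had. Of the 19 over the count limit in both groups 18 were called, beside 36.7% of all genes over it in both. *Gata2* was tested and stayed under the fold limit, with 2.43 to 3.86 CPM in Cb-N and 3.29 to 4.87 CPM in F/M-N, which overlapped. For all 7 cortical and all 8 ventral forebrain factors every Cb-N library was below every F/M-N library. Among them *Tbr1* and *Bcl11b* were over the count limit in Cb-N, and the others are among those tested through F/M-N alone. Of the 42 tested factors, 27 had all Cb-N libraries below all F/M-N libraries, beside 38.8% of all tested genes. *Tbr1*, a factor of deep cortical layers, had 0.887 to 0.963 CPM in Cb-N and 111 to 114 CPM in F/M-N (log2 change, Cb-N against F/M-N, -6.95, standard error (SE) of 0.075, adjusted p = 1e-24). *Fezf2*, which specifies corticospinal neurons, had 1 count over the 3 Cb-N libraries and 1744 over the 3 F/M-N libraries, a ratio of levels of 1670 with a counting interval of 299 to 65900. *Dlx2*, a GABAergic fate factor of the ventral forebrain, had 0 counts in Cb and was at least 48.5-fold lower in Cb-N than in F/M-N, taking 3 counts per library as the floor. *Nkx2-1*, of the hypothalamus and medial ganglionic eminence, was also at 0 and at least 13.9-fold lower.

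Of the 10 factors named as cerebellar, 7 were higher in Cb-N, *Foxp2* and *Meis2* were lower there and *Atoh1*, the rhombic lip factor that precedes granule cells, had 0 counts in all 12 libraries. *Pax6*, kept on in granule cells, had 124 to 126 CPM in Cb-N and 10.6 to 12.4 CPM in F/M-N. *Lhx1*, a Purkinje cell factor, had 72.5 to 78.6 against 1.86 to 2.52 CPM. *En2*, an isthmus factor that stays on in the cerebellum, had 130 to 140 against 1.57 to 1.69 CPM (log2 change 6.36, SE of 0.069, adjusted p = 1.1e-24). *Meis2* went the other way, with 4.97 to 5.66 CPM in Cb-N against 154 to 158 CPM in F/M-N (log2 change -4.91, SE of 0.053, adjusted p = 1.1e-24). Among the midbrain and isthmus factors 5 were higher in Cb-N (*Otx2*, *Lmx1a*, *En1*, *En2* and *Pax2*) and 3 were lower (*Lmx1b*, *Pax5* and *Pax7*). The *Pax5* call (log2 change -0.7) was lost without Cb-N3, at -0.55. *Tlx3*, which favours glutamatergic over GABAergic fate in sensory interneurons, had 3.68 to 4.41 CPM in Cb-N and 0 counts in F/M-N, at least 30.3-fold higher in Cb-N. *Lbx1*, its counterpart in dorsal hindbrain and spinal cord interneurons, had 297 counts over the Cb-N libraries and 1 over the F/M-N libraries, a ratio of 310 with a counting interval of 55.3 to 12300. Of the factors best known from midbrain dopamine neurons, *Pitx3* had 6 counts over the 3 F/M-N libraries and 0 in Cb, *Foxa2* had 9 and 0, and *Foxa1* had 44 and 0.

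In T against N, more of these genes were called in the cerebellum than in the forebrain/midbrain, as was the case over all tested genes (11.2% against 3.49%). In Cb, 29 of the 47 were tested and 15 were called, 13 upregulated and 2 downregulated, beside 11.2% of all tested genes (8.54% up and 2.66% down). Of the 13 upregulated factors, 7 (*Lhx2*, *Six3*, *Lmx1b*, *Pax7*, *Gata3*, *Pou4f1* and *Pou4f2*) passed the filter through the Cb-T libraries alone. The filter thus favoured a higher level in Cb-T for these 7. Among the 22 factors that were over the count limit in Cb-N itself, 6 were upregulated (*Bcl11b*, *Pax5*, *Tal1*, *Lhx9*, *Meis2* and *Irx2*) and 2 downregulated (*Pax2* and *Tlx3*), beside 6.34% and 2.77% of all genes over that limit. The median log2 change of those 22 was -0.16, and of all genes over the limit 0.001. Another 11 tested factors had an FDR below 0.1 and a change under the fold limit, 3 with a higher and 8 with a lower level in Cb-T, beside 21.2% and 25.2% of all tested genes. That made 26 of the 29 with an FDR below 0.1, against 57.6% of all tested genes. *Tbr1*, *Lmx1a* and *Irx3* had an FDR above 0.1. The Cb-T libraries were all above the Cb-N libraries for 15 of the 29 tested factors and all below for 9, beside 27.7% and 29.4% of all tested genes, and the libraries overlapped for 5. With the untested factors, which had few counts in Cb, these counts were 19, 10 and 18, and the shares of tested genes do not cover them. In whole tissue, more cells of a type and more RNA per cell cannot be told apart, and the same holds for fewer cells and less RNA. Cb-N served in the comparison with F/M-N and as the control of Cb-T, so the values of those comparisons are given side by side and no relation between them was computed.

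**Figure D2:**
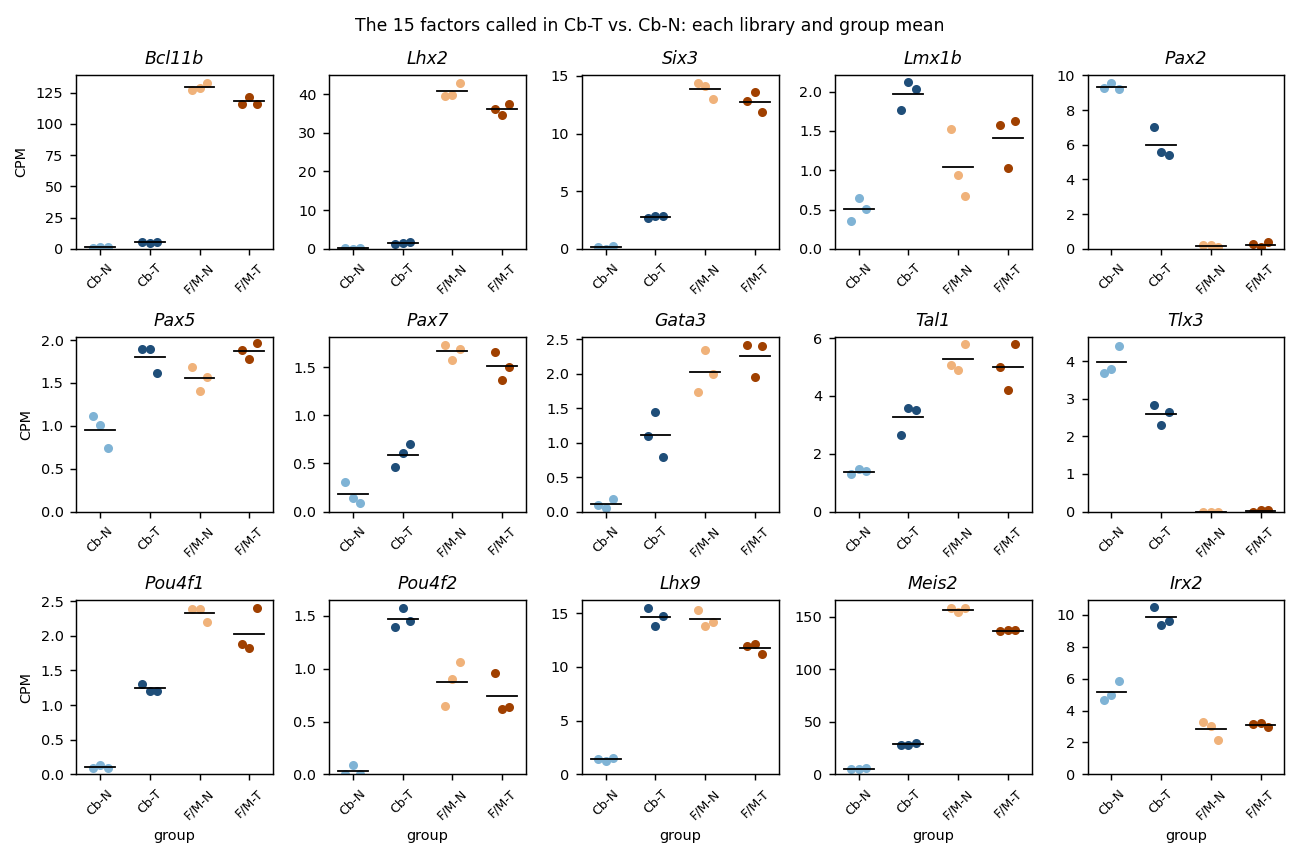
CPM of the 15 factors called in Cb-T vs. Cb-N, with 1 point per library, 3 libraries per group and the group mean as a line, in Cb-N, Cb-T, F/M-N and F/M-T, with each vertical axis starting at 0. The Cb-T points lie above the Cb-N points for 13 factors and below them for *Pax2* and *Tlx3*, and *Lhx9* in Cb-T (13.8 to 15.5 CPM) reaches the level of F/M-N (13.8 to 15.3 CPM).

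Of the 8 tested factors of brainstem and diencephalic neuron subtypes, 5 rose and 1 fell in Cb, beside 8.54% and 2.66% of all tested genes. *Gata3*, *Pou4f1* and *Pou4f2* were tested through Cb-T alone. Among the 5 of this class over the count limit in Cb-N, 2 (*Tal1* and *Lhx9*) rose and 1 (*Tlx3*) fell, beside 6.34% and 2.77% of all genes over it. *Lhx9*, a LIM-homeodomain factor of diencephalic and midbrain neurons (chr1:138825186-138848577, minus strand, GENCODE M21 on GRCm38), had 1.42, 1.28 and 1.48 CPM in Cb-N and 15.5, 13.8 and 14.7 CPM in Cb-T. No library overlapped, and the log2 change was 3.4 (SE of 0.12, adjusted p = 7e-26). In F/M the same gene had 15.3, 13.8 and 14.2 CPM in N and 11.9, 12.1 and 11.2 CPM in T (log2 change -0.27, SE of 0.074, adjusted p = 0.014), under the fold limit. *Pou4f1*, which encodes the POU factor BRN3A of the habenula, red nucleus and sensory neurons (chr14:104461676-104467999, minus strand), had 0.0887, 0.138 and 0.0928 CPM in Cb-N and 1.31, 1.21 and 1.2 CPM in Cb-T. The Cb-N values lie at or under the floor, and the log2 change was 3.49 (SE of 0.41, adjusted p = 1.6e-09). Its relative *Pou4f2* (BRN3B, known for retinal ganglion cells and the superior colliculus, chr8:78433010-78436645, minus strand) had 2 counts in Cb-N, both in Cb-N2, and 107 in Cb-T, where the libraries had 1.39, 1.57 and 1.45 CPM. The ratio of levels was 48.5 with a counting interval of 13.1 to 406, and the adjusted p was 1.3e-11. The fitted log2 change was 5.38, and 8.11 without Cb-N2, where the Cb-N counts are 0 and the value is no bound. In F/M, *Pou4f2* had 0.651 to 1.06 CPM in N and 0.621 to 0.963 CPM in T, so that Cb-T held the highest values of the 4 groups with no overlap. *Gata3*, a zinc-finger factor of GABAergic neurons in midbrain and hindbrain and of serotonin neurons, had 0.0887, 0.0458 and 0.186 CPM in Cb-N and 1.1, 1.45 and 0.787 CPM in Cb-T (log2 change 3.34, SE of 0.45, adjusted p = 3.8e-08, and 3.94 without Cb-N3). *Tal1*, which works with GATA factors in the same GABAergic lineages and in blood vessels, had 1.29, 1.47 and 1.39 CPM in Cb-N and 2.66, 3.58 and 3.52 CPM in Cb-T (log2 change 1.25, SE of 0.19, adjusted p = 2.6e-07). *Gata2*, the third gene of that set, had 2.43 to 3.86 and 3.58 to 4.72 CPM, which overlapped (log2 change 0.39, adjusted p = 0.029, under the fold limit). *Gata2* and *Tal1* are also used by endothelial cells, and the summed level of 8 endothelial genes was 216 to 224 CPM in Cb-N and 238 to 242 CPM in Cb-T, with none of the 8 called. Their part in the *Gata2* and *Tal1* values was not tested.

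Of the remaining factors of this class, *Tlx3* was called with a lower level in Cb-T. *Tlx3* (chr11:33200752-33203589, minus strand) had 3.68, 3.8 and 4.41 CPM in Cb-N and 2.83, 2.29 and 2.65 CPM in Cb-T. All T libraries were below all N libraries, and the log2 change was -0.6 (SE of 0.15, adjusted p = 0.00075), close to the fold limit, and the call was lost without Cb-N3 or without Cb-T2 (-0.52 at the smallest). *Lbx1* had 4.22 to 4.88 CPM in Cb-N and 3.1 to 4.23 CPM in Cb-T (log2 change -0.28, adjusted p = 0.082). *Phox2a*, the noradrenaline neuron factor, had 2 counts over the Cb-N libraries and 15 over the Cb-T libraries, a ratio of 6.8 with a counting interval of 1.58 to 61.3, and was not tested. Its exons share 95 bases with *Inppl1* on the other strand, a gene with 958 counts per Cb-N library. *Sox14*, a midbrain and thalamic GABAergic factor, had 0.177 to 0.186 CPM in Cb-N and 0.337 to 0.443 CPM in Cb-T and was not tested. *Isl1*, the LIM-homeodomain factor of motor and cholinergic neurons, had 6 counts over the Cb-N libraries and 1 over the Cb-T libraries, at or under the floor in both groups on average.

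Markers of brainstem neurons and of the hindbrain had values of several kinds in the same libraries. The summed level of 3 noradrenaline neuron genes was 1.7 to 1.9 CPM in Cb-N and 16.6 to 19.3 CPM in Cb-T, with all 3 called, 1 of them tested through Cb-T alone. That of 5 serotonin neuron genes was 1.44 to 1.82 and 7.8 to 9.46 CPM, and that of 5 cholinergic and motor neuron genes was 0.974 to 1.33 and 7.91 to 8.22 CPM, with *Mnx1* at 0 in every library. Of these lists 3 and 4 genes were tested and called, but 2 and 3 of them passed the filter through Cb-T alone. That favoured a higher level in Cb-T for them. *Tph2* and *Slc5a7* were over the count limit in both groups. The 15 Hox genes of the hindbrain summed to 0.371 to 0.596 CPM in Cb-N, with 7 of them at 0, and to 14.2 to 14.9 CPM in Cb-T, with none at 0 throughout. The 10 of them that were tested all passed the filter through Cb-T alone, so no count of calls is given for them. In F/M these Hox genes summed to at most 0.0846 CPM. *Slc17a6* and *Tcf7l2*, which mark thalamic and other subcortical glutamatergic neurons, were the called genes of the 6-gene thalamus list, whose sum was 1000 to 1010 CPM in Cb-N and 995 to 1010 CPM in Cb-T. The 3 glycinergic genes summed to 167 to 169 CPM in Cb-N and 149 to 162 CPM in Cb-T, with *Glra1* called and *Slc6a5* (-0.02) and *Slc32a1* (-0.21) not called. The 5 dopamine neuron genes summed to 92 to 96.9 and 60.8 to 63.3 CPM, with *Slc18a2* and *Ddc* upregulated and *Nr4a2* downregulated. The 8 microglial genes summed to 122 to 131 CPM in Cb-N and 345 to 361 CPM in Cb-T, with 6 called, all over the count limit in both groups. The part that these markers and differences in the tissue included in the libraries had in the factor values was not tested.

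Of the 8 midbrain and isthmus factors tested in Cb, 3 rose and 1 fell, beside 8.54% and 2.66% of all tested genes. *Lmx1b* and *Pax7* were tested through Cb-T alone. Among the 6 over the count limit in Cb-N, 1 rose and 1 fell, beside 6.34% and 2.77% of all genes over it. *Lmx1b*, which serotonin and dopamine neurons need (chr2:33560965-33640511, minus strand), had 0.355, 0.642 and 0.51 CPM in Cb-N and 1.77, 2.13 and 2.03 CPM in Cb-T, without overlap (log2 change 1.99, SE of 0.27, adjusted p = 2.7e-08). *Pax7*, a factor of the dorsal midbrain (chr4:139737062-139833528, minus strand), had 0.311, 0.138 and 0.0928 CPM in Cb-N and 0.464, 0.604 and 0.704 CPM in Cb-T (log2 change 1.68, SE of 0.46, adjusted p = 0.002, and 2.31 without Cb-N1). *Pax5*, an isthmus factor (chr4:44524757-44710487, minus strand), had 1.11, 1.01 and 0.742 CPM in Cb-N and 1.9, 1.89 and 1.62 CPM in Cb-T (log2 change 0.92, SE of 0.23, adjusted p = 0.00082). *Pax2*, its paralogue, which in cerebellum marks the precursors of GABAergic interneurons (chr19:44756045-44837871, plus strand), went down, with 9.27, 9.58 and 9.23 CPM in Cb-N and 7.04, 5.6 and 5.39 CPM in Cb-T. Its log2 change was -0.63 (SE of 0.1, adjusted p = 1.6e-06), and without Cb-T2 or without Cb-T3 it was -0.56 at the smallest and under the fold limit. The engrailed genes and *Otx2* had lower Cb-T libraries without overlap and stayed under the fold limit. *En2* had 130, 134 and 140 CPM in Cb-N and 102, 97.1 and 96.7 CPM in Cb-T (log2 change -0.44, SE of 0.032, adjusted p = 1.9e-15), and *En1* had 4.54 to 4.59 and 3.23 to 4.35 CPM (-0.32, adjusted p = 0.047). *Otx2*, which adult choroid plexus also expresses, had 24.3 to 25.7 and 19 to 21.2 CPM (-0.3, adjusted p = 4.7e-05), and 6 choroid plexus genes summed to 2200 to 2340 CPM in Cb-N and 2110 to 2240 CPM in Cb-T. *Lmx1a*, known from dopamine neurons and from unipolar brush cells of the cerebellum, had 2.35 to 3.35 and 2.86 to 3.31 CPM (log2 change 0.17, SE of 0.16, adjusted p = 0.4). *Foxa1* and *Foxa2*, floor plate and dopamine neuron factors, had 3 and 2 counts over the Cb-T libraries against 0 in Cb-N, and *Pitx3* had 0 in both.

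Of the forebrain factors, 3 rose in Cb, *Tbr1* was tested and not called, and the others were not tested. *Lhx2* and *Six3* were tested through Cb-T alone, and *Bcl11b* and *Tbr1* were over the count limit in Cb-N. Over all tested genes 8.54% were upregulated, and 6.34% of those over that limit. *Six3*, a homeodomain factor of the anterior forebrain (chr17:85613608-85629302, plus strand), had 0.177, 0 and 0.232 CPM in Cb-N and 2.66, 2.86 and 2.86 CPM in Cb-T. The Cb-T libraries stood close together, and the log2 change was 4.31 (SE of 0.34, adjusted p = 2.3e-14). *Six3* shares 106 exonic bases with its antisense neighbour *Six3os1*, which had 0.667 counts per library in Cb-N and 42.3 in Cb-T. The library kit keeps strand and the strand setting of the counting is not given in the sources used here, so reads of this pair may have been mixed. *Lhx2*, a selector of cortical identity that thalamic neurons also use (chr2:38339281-38369733, plus strand), had 0.0887, 0.0458 and 0.186 CPM in Cb-N and 1.27, 1.49 and 1.82 CPM in Cb-T (log2 change 3.79, SE of 0.41, adjusted p = 1.5e-10, and 4.4 without Cb-N3). *Bcl11b* (CTIP2, of subcerebral projection neurons and striatal neurons, chr12:107910403-108003602, minus strand) had 1.02, 1.47 and 1.39 CPM in Cb-N and 5.78, 4.51 and 5.34 CPM in Cb-T (log2 change 2.02, SE of 0.17, adjusted p = 1.2e-13). Of the other cortical factors *Tbr1* was tested and not called. It had 0.887, 0.963 and 0.881 CPM in Cb-N and 0.464, 0.926 and 0.746 CPM in Cb-T (log2 change -0.33, SE of 0.3, adjusted p = 0.36). *Emx1* had 8 counts over the Cb-N libraries and 7 over the Cb-T libraries, and *Fezf2* had 1 in each group. *Emx2* had 1 count in Cb-N and 20 in Cb-T, a ratio of 18.1 with a counting interval of 2.9 to 752, and *Otx1* had 12 and 21. *Emx2* and *Otx1* had every Cb-T library above every Cb-N library. These 4 genes were not tested in Cb, and *Emx2* was called there without the filter and in the fit of all 12 libraries. The DLX genes, *Lhx6* of cortical interneurons, *Nkx2-1* and *Sim1* of the hypothalamus were not tested either. *Dlx2* and *Nkx2-1* had 0 counts in all 6 Cb libraries, *Dlx5*, *Dlx6* and *Sim1* had at most 1 count per group, *Dlx1* had 5 and 13, and *Lhx6* had 18 and 14. The 8 forebrain neuron genes summed to 357 to 373 CPM in Cb-N and 389 to 402 CPM in Cb-T, with *Nrgn* called, *Drd1* called after passing the filter through Cb-T alone and 5 other tested genes not called.

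Of the 10 cerebellar factors, 2 rose in Cb, 6 had an FDR below 0.1 and a change under the fold limit, and *Atoh1* had no count. All 9 that were tested were over the count limit in Cb-N, and 6.34% of all genes over it were upregulated. *Meis2*, a TALE homeodomain factor that was far higher in F/M-N (chr2:115863064-116065839, minus strand), had 4.97, 5.04 and 5.66 CPM in Cb-N and 28.3, 28.3 and 29.9 CPM in Cb-T (log2 change 2.48, SE of 0.078, adjusted p = 3.3e-28). *Irx2*, an iroquois factor (chr13:72628820-72634198, plus strand), had 4.66, 4.95 and 5.84 CPM in Cb-N and 10.5, 9.38 and 9.61 CPM in Cb-T (log2 change 0.94, SE of 0.1, adjusted p = 2.2e-10). Its neighbour in the same gene cluster, *Irx1*, had 5.5 to 5.78 and 6.21 to 7.04 CPM (0.23, adjusted p = 0.069), under the fold limit, and *Irx3* had 5.99 to 6.97 and 5.35 to 6.7 CPM (-0.12, adjusted p = 0.38). *Foxp2*, of Purkinje cells and of striatal and thalamic neurons, had 13.5, 14.4 and 15.9 CPM in Cb-N and 21.8, 20.3 and 20.6 CPM in Cb-T (log2 change 0.53, SE of 0.069, adjusted p = 1.2e-08), under the fold limit, and without Cb-N3 it was 0.59 and called. The granule cell factors *Pax6* (124 to 126 against 98.8 to 101 CPM) and *Meis1* (58.6 to 63.5 against 51.4 to 54.3 CPM) had lower Cb-T libraries, with log2 changes of -0.32 and -0.19 (adjusted p = 5.6e-12 and 0.00021). The Purkinje cell factors *Lhx1* (72.5 to 78.6 against 59.7 to 60.7 CPM) and *Lhx5* (12.6 to 14.1 against 9.9 to 11.5 CPM) had -0.31 and -0.35 (adjusted p = 2.1e-09 and 0.00035). These 4 values were all under the fold limit. Over the same libraries 6 granule cell genes summed to 5620 to 5720 CPM in Cb-N and 4780 to 4890 CPM in Cb-T (median log2 change -0.32, none called), and 6 Purkinje cell genes to 7710 to 7960 and 6430 to 6520 CPM (median -0.24, none called). Their part in the values of the granule and Purkinje cell factors was not tested.

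**Figure D3:**
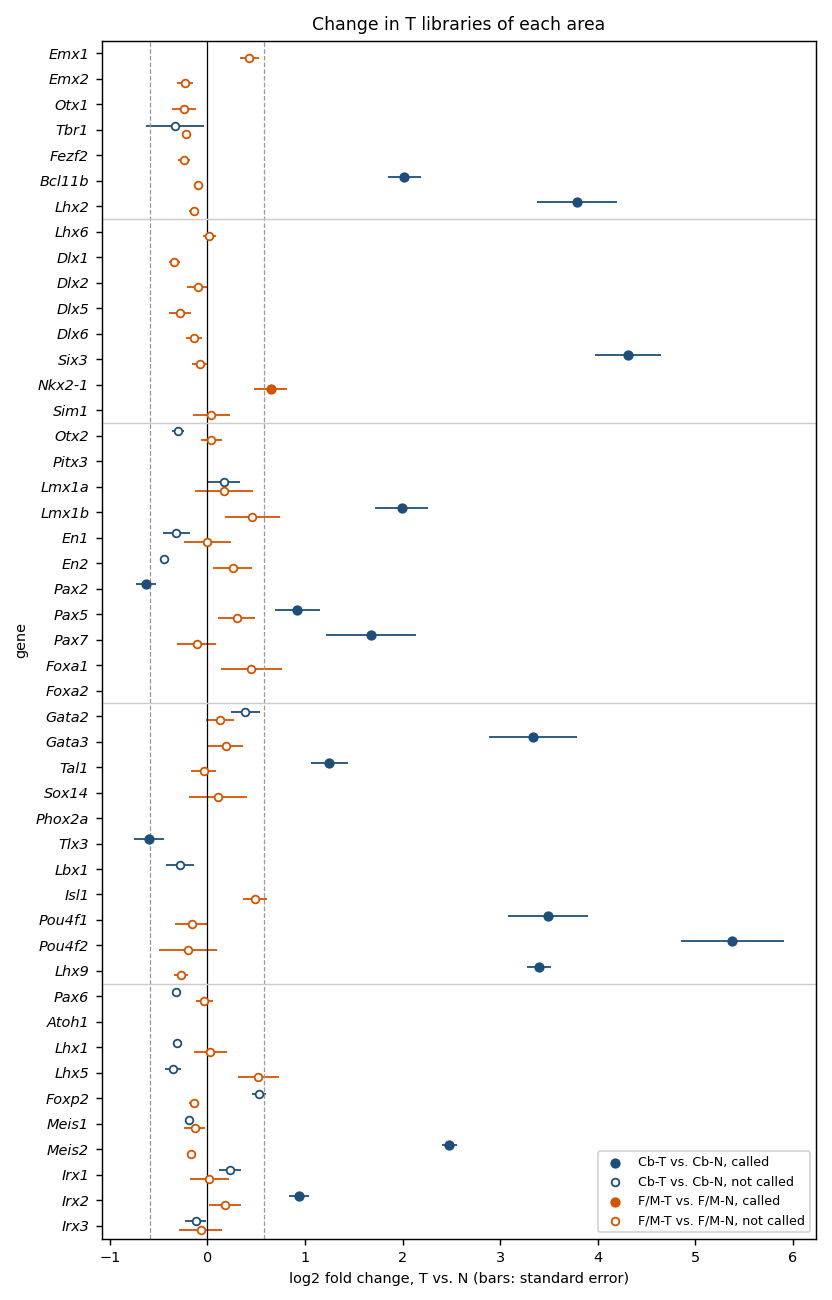
Log2 fold change of T vs. N for each of the 47 factors, with Cb in blue and F/M in orange, the standard error as a bar, filled symbols for called genes and dashed lines at the fold limit of 1.5. Genes without a symbol in an area were not tested there. The called Cb values run from -0.63 (*Pax2*) to 5.38 (*Pou4f2*), and the F/M values run from -0.34 (*Dlx1*) to 0.65 (*Nkx2-1*).

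In F/M, 40 of the 47 factors were tested and 1, *Nkx2-1*, was called, upregulated, beside 3.49% of all tested genes (2.63% up and 0.858% down). *Nkx2-1* (chr12:56531958-56536908, minus strand) had 2.26, 1.85 and 1.61 CPM in F/M-N and 2.67, 3.1 and 3 CPM in F/M-T. The libraries did not overlap, and the log2 change was 0.65 (SE of 0.17, adjusted p = 0.0099). Without F/M-N3 it was 0.54 and no longer called. Other genes of the hypothalamus and ventral forebrain had F/M values of several kinds. *Sim1*, of the paraventricular hypothalamus, had 1.69 to 1.78 and 1.58 to 1.93 CPM (log2 change 0.04, adjusted p = 0.91), and *Isl1* had 3.69, 5.09 and 4.53 CPM in N and 6.39, 5.59 and 6.29 CPM in T (0.49, SE of 0.12, adjusted p = 0.0081), under the fold limit. *Lhx6* had 17.6 to 18.6 and 16.5 to 19 CPM (0.02, adjusted p = 0.87). Forebrain and hypothalamic factors outside the 47 had changes of both signs. *Otp* had 0.54 (adjusted p = 0.026, under the fold limit), *Lhx8* had 0.59 (adjusted p = 0.015, called) and *Sp8* had -1.23 (adjusted p = 2.4e-06, called).

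A further 13 factors had an FDR below 0.1 in this area and a change under the fold limit, 3 with a higher and 10 with a lower level in F/M-T, beside 10.2% and 13.6% of all tested genes. That made 14 of the 40 with an FDR below 0.1, against 27.2% of all tested genes. The higher ones were *Emx1*, *Isl1* and *Lhx5*, and *Isl1* was called at 0.6 without F/M-N2 and *Lhx5* at 0.7 without F/M-N2 and at 0.66 without F/M-T1. *Emx1* had 7.63, 8.55 and 9.1 CPM in N and 12.1, 11.5 and 9.72 CPM in T (log2 change 0.43, SE of 0.097, adjusted p = 0.0032), while *Emx2*, its partner in the dorsal telencephalon, had 10.4, 9.77 and 9.99 CPM in N and 8.4, 8.86 and 7.92 CPM in T (-0.23, SE of 0.085, adjusted p = 0.065). The paralogues thus had changes of opposite sign, both without overlap of the libraries and both under the fold limit. The lower ones included 5 of the 7 cortical factors. *Tbr1* had 111 to 114 CPM in N and 94.2 to 95.7 CPM in T (-0.22, SE of 0.034, adjusted p = 1e-04), and *Fezf2* had 24.7 to 26.2 and 20.2 to 22 CPM (-0.24, adjusted p = 0.0058). *Bcl11b* and *Lhx2* had -0.1 and -0.14. *Dlx1* and *Dlx5* had -0.34 and -0.28, and *Lhx9*, *Foxp2* and *Meis2* had -0.27, -0.14 and -0.17. *Dlx1* had 27.1 to 29.1 CPM in N and 21.4 to 21.8 CPM in T (adjusted p = 0.00017). In the same libraries 6 olfactory bulb genes summed to 40.5 to 42 CPM in F/M-N and 14.9 to 16.4 CPM in F/M-T. Of these, 3 (*Doc2g*, *Eomes* and *Cdhr1*) were over the count limit in both groups and called. The other 3 were called after passing the filter through F/M-N alone, which favoured a lower level in F/M-T. The 8 forebrain neuron genes summed to 4770 to 4840 and 4430 to 4520 CPM, with none called. The 5 serotonin neuron genes summed to 26.3 to 28.5 CPM in F/M-N and 40.1 to 43.1 CPM in F/M-T, with *Tph2* called, and *Slc6a4* called after passing the filter through F/M-T alone. Their part in the factor values was not tested. The other 26 tested factors had an FDR above 0.1, among them every tested midbrain and isthmus factor (*Lmx1b* was called, at 0.83, without F/M-N1), and 24 of the 40 tested factors had overlapping libraries. The F/M-T libraries were all above the F/M-N libraries for 4 of the 40 and all below for 12, beside 13.3% and 23.6% of all tested genes.

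The change in Cb was set against that in F/M by the area-by-genotype interaction over all 12 libraries. Of the 47 factors, 43 were tested and 17 were called, 14 with the higher log2 change in Cb and 3 with the lower, beside 7.61% of all tested genes (6.41% and 1.2%). The called increases in Cb carried over except that of *Pax5*, whose difference was 0.64 (SE of 0.29, adjusted p = 0.12, and 0.76 and called without Cb-N1). *Pax2* and *Tlx3*, the factors that fell in Cb, had differences of -0.99 and -3.26 with standard errors of 0.56 and 1.7 (adjusted p = 0.23 and 0.18), with *Pax2* called at -1.41 without F/M-T2, and both had mean levels of at most 0.244 CPM in F/M. *Foxp2* and *Emx2* were called with the higher change in Cb, at 0.69 (SE of 0.082, adjusted p = 1.5e-07) and 4.03 (SE of 0.81, adjusted p = 0.00039). *Emx2* had 0.0444, 0 and 0 CPM in Cb-N and 0.337, 0.322 and 0.166 CPM in Cb-T, so this difference rests on 1 and 20 counts and was 5.96 without Cb-N1. *Emx2* shares 264 exonic bases with *Emx2os* on the other strand, which had 0 counts per library in Cb-N and 4.67 in Cb-T, so reads of this pair may have been mixed too. Exons of *Dlx1*, *Dlx6*, *Otx2*, *Pitx3*, *Pax5*, *Gata3*, *Lhx5*, *Meis1* and *Irx3* also overlap a gene on the other strand. *Foxp2* had 41.5, 41.8 and 43.5 CPM in F/M-N and 37.2, 39.4 and 35.9 CPM in F/M-T, against the higher Cb-T values given above. The 3 with the lower change in Cb were *En2* (-0.68, adjusted p = 0.0054), *Lhx5* (-0.86, adjusted p = 0.0032) and *Isl1* (-2.79, adjusted p = 0.089). *En2* had 1.69, 1.62 and 1.57 CPM in F/M-N and 1.53, 1.95 and 2.23 CPM in F/M-T, which overlapped, and without F/M-T3 its difference was -0.55 and not called. *Lhx5* had 12.6, 14.1 and 14 CPM in Cb-N and 11.5, 10.2 and 9.9 CPM in Cb-T, and 1.26, 1.89 and 1.44 CPM in F/M-N and 1.71, 2.4 and 2.31 CPM in F/M-T. Its values were thus lower in T in Cb and higher on average in T in F/M. *Isl1* had 0.0444, 0.0458 and 0.186 CPM in Cb-N and 0.0422, 0 and 0 CPM in Cb-T, which is 6 counts against 1, and its call was lost in 6 of the 12 fits that left out a library, with values from -4.66 to -1.86.

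Of the other 12 factors called in this test, none was called in F/M. *Bcl11b* had 127, 129 and 133 CPM in F/M-N and 116, 122 and 116 CPM in F/M-T, *Lhx2* had 39.6, 39.7 and 42.9 against 36.1, 34.7 and 37.5 CPM, and *Meis2* had 158, 154 and 158 against 136, 137 and 137 CPM. In these 3 and in *Lhx9* every F/M-T library was below every F/M-N library, by less than the fold limit. *Six3* had 14.4, 14.1 and 13 CPM in F/M-N and 12.8, 13.6 and 11.9 CPM in F/M-T, and *Pax7* had 1.73, 1.58 and 1.69 against 1.66, 1.37 and 1.5 CPM. *Lmx1b* varied most among its F/M-N libraries, with 1.52, 0.945 and 0.677 CPM in N and 1.58, 1.03 and 1.63 CPM in T. These 3 overlapped between genotypes, as did the rest. *Gata3* had 1.73, 2.34 and 1.99 CPM in F/M-N and 2.41, 1.95 and 2.4 CPM in F/M-T, and *Tal1* had 5.07, 4.91 and 5.8 against 4.99, 4.22 and 5.78 CPM. *Pou4f1* had 2.39, 2.39 and 2.2 CPM in F/M-N and 1.88, 1.82 and 2.4 CPM in F/M-T, *Pou4f2* had 0.651, 0.9 and 1.06 against 0.963, 0.621 and 0.642 CPM, and *Irx2* had 3.3, 3.02 and 2.16 against 3.15, 3.23 and 2.95 CPM. The differences between the areas ran from 0.79 for *Irx2* (SE of 0.19, adjusted p = 0.0028) to 5.6 for *Pou4f2* (SE of 0.67, adjusted p = 1.7e-07), and *Lhx9* (3.69, SE of 0.14, adjusted p = 1.8e-18) and *Meis2* (2.66, SE of 0.073, adjusted p = 8.3e-22) had the smallest standard errors among them relative to their size. Leaving out Cb-N2 moved the *Pou4f2* difference to 8.34, leaving out Cb-N3 moved *Lhx2* to 4.57 and *Gata3* to 3.79, and leaving out Cb-N1 moved *Pax7* to 2.45, with every call kept.

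**Figure D4:**
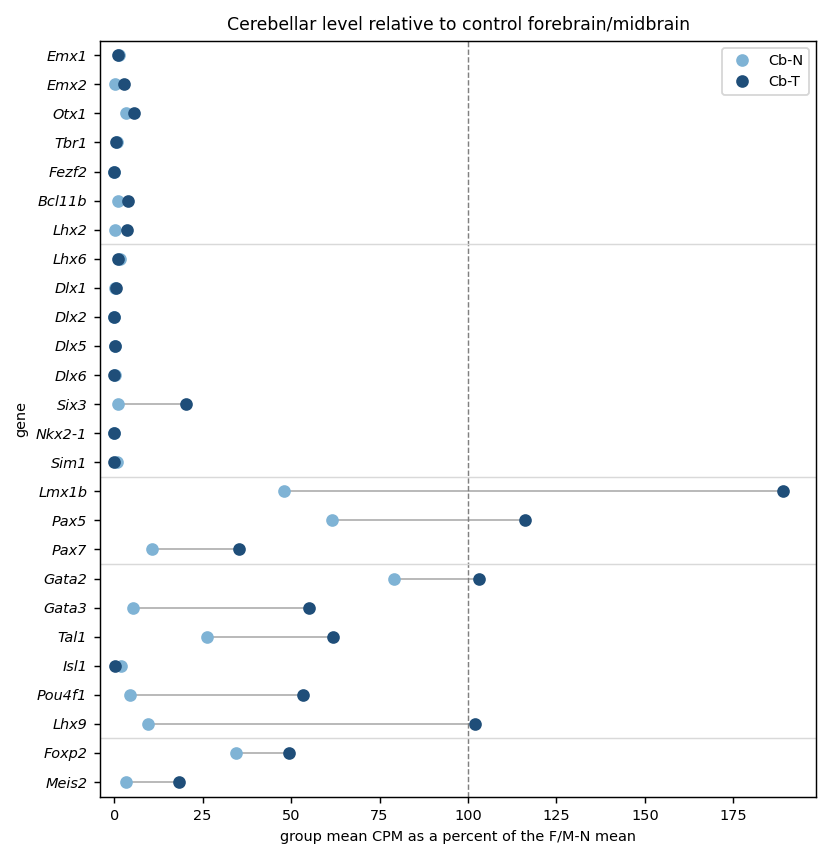
Mean level in Cb-N (light) and Cb-T (dark) as a percent of the F/M-N mean, for the 26 factors that had at least 1 CPM in F/M-N and a higher mean there than in Cb-N. A line joins the groups of a gene, and the dashed line marks 100%. Cortical and ventral forebrain factors stay at the left edge in both groups except *Six3*, and *Lmx1b*, *Pax5*, *Gata2* and *Lhx9* pass the line in Cb-T.

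The level that each factor reached in Cb-T can be read against F/M-N, the control tissue of the other area. *Lhx9* went from 9.67% of the F/M-N mean in Cb-N to 102% in Cb-T, *Lmx1b* from 48% to 189% and *Pou4f2* from 3.51% to 169%. *Gata3*, *Pou4f1* and *Tal1* reached 55%, 53.3% and 61.9%, from 5.28%, 4.58% and 26.3%. *Pax7* and *Foxp2* reached 35.4% and 49.4%. The forebrain factors that rose stayed lower, with *Six3* at 20.2%, *Bcl11b* at 4.02% and *Lhx2* at 3.74%, and *Meis2* stood at 18.4%. Over the 7 cortical factors the median was 0.806% in Cb-N and 2.74% in Cb-T, with a highest value of 5.48% (*Otx1*). Over the 8 ventral forebrain factors it was 0.256% and 0.113%. Over the 6 brainstem and diencephalic factors with at least 1 CPM in F/M-N it was 7.48% and 58.4%. *Isl1* among them went the other way, from 2.07% to 0.317%, with few counts in Cb. These percentages compare group means of 3 libraries within a gene, and no test was made on them.

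Other regional factors made up a second list of 47 genes. Of the 31 tested in Cb, 4 of them through Cb-T alone, 6 were upregulated and 3 downregulated, and in F/M 1 of 33 was upregulated and 3 were downregulated, beside the shares of all genes given above. The hindbrain factors among them had 4 of 5 tested genes upregulated in Cb, although 3 of the 5 were tested through Cb-T alone. One of those tested through Cb-T alone was *Prrxl1*, which works in sensory relay neurons (log2 change 3.93, adjusted p = 4.2e-06). Of the diencephalic and midbrain factors 8 were tested in Cb, with *Tcf7l2* (2.52, adjusted p = 1.3e-29) upregulated and *Nr4a2* (-1.39, adjusted p = 6.5e-29) downregulated, and *Pax8*, whose mean CPM was 0.213 for Cb-N against 0.851 for Cb-T, called after passing the filter through Cb-T alone. *Tcf7l2*, a thalamic factor, had 6.3 to 6.68 CPM in Cb-N, 34.8 to 39.6 CPM in Cb-T and 43.6 to 46.9 CPM in F/M-N. Of the factors listed as other forebrain factors 5 were tested in Cb and *Eomes*, a factor of unipolar brush cells in the cerebellum as well, was called (-2.2, adjusted p = 4e-32). *Eomes* had 52.2 to 54.1 CPM in Cb-N and 3.34 to 3.69 CPM in F/M-N, and *Neurod2* and *Zic5*, also among the 5, were called higher in Cb-N than in F/M-N too, so the name of the list does not describe where these 3 were high. In F/M *Eomes* (-1.85, adjusted p = 4.7e-07) and *Sp8* (-1.23, adjusted p = 2.4e-06) went down and *Lhx8* (0.59, adjusted p = 0.015) went up. Of the other cerebellar factors 13 were tested in Cb and *Tfap2b* was called (-0.61, adjusted p = 9.1e-17), with a median log2 change of -0.32 over the 13.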

How the data were processed

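Counts per gene, 1 table for each of the 12 libraries, were deposited by the authors without normalization. Per the labels and the study's methods, poly(A)-selected stranded libraries were sequenced as single-end reads, aligned to GRCm38 with STAR and counted with featureCounts 1.26.1. The strand setting and the annotation used for counting are not given in the sources used here. Samples were grouped by their titles. In R 4.3.3, genes were kept by filterByExpr of edgeR 4.0.16 (minimum count 10, minimum total 15), scaled by TMM and compared by its quasi-likelihood test, with p adjusted by the Benjamini-Hochberg method, in separate fits for Cb-N vs. F/M-N and for T vs. N in each area, and for the area-by-genotype interaction over all 12 libraries. A call needed an FDR under 0.1 together with a change of 1.5-fold or more, limits taken from the study. The filter needed 3 libraries over 0.437, 0.441 and 0.423 CPM in the baseline, Cb and F/M fits. Total counts were 21428379 to 24458189 per library, so 3 counts were 0.121 to 0.139 CPM. Replicates of a group differed by more than sampling noise (chi-square per degree of freedom 1.27 to 3.37 over 12 pairs). The study's methods describe RNA of 3 mice per genotype. Intervals of ratios are 95% exact counting intervals.

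The members, lists and tests were chosen with earlier results of these data known. All 47 members are accounted for by role. Those called in T vs. N or in the interaction are given with every library, and at most 4 others per role group were to be named by their mean CPM. Further members that were not called were named after their values were seen, so that each has its values. From other lists at most 3 called genes with the largest change were to be named. This was not kept throughout. Some genes that were not called are named, and for the olfactory bulb list those over the count limit in both groups are named. Some genes of these lists are not reported here. Positions and overlapping exons are from GENCODE M21 (GRCm38) by symbol, and promoters from the RefSeq table of GRCm38.p6.

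Same-numbered libraries of different groups deviated together with correlations of -0.016 to 0.062, all under 0.1, so the numbers were not taken to pair them. Alternatives were the Wald test of DESeq2 1.42.0, limma-voom (limma 3.58.1), RLE size factors, no filter, a minimum mean count of 50, the replicate number as a block, 1 fit of all 12 libraries, no fold limit, leaving out each library, and, chosen after seeing the data, calls by at least 2 of 3 tools. Tested on simulated data with 200 genes changed 2-fold, the test recovered 185, 180, 184 and 174 of them in the baseline, Cb, F/M and interaction designs, with 10, 4, 2 and 5 false calls among 16464, 16201, 16506 and 17107 genes. The authors' own comparisons were not used.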

Additional observations from a re-analysis of the deposited data

Results flagged for a closer look

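By the interaction test the effect of genotype differed between the areas for 17 of the 43 factors tested. The share over all tested genes was 7.61% (6.41% with the higher change in Cb and 1.2% with the lower). The test was edgeR's quasi-likelihood test over all 12 libraries, with Benjamini-Hochberg adjustment. The values are the log2 fold change in Cb minus that in F/M. Among the brainstem and diencephalic factors the difference was 5.6 for *Pou4f2*, 3.69 for *Lhx9*, 3.67 for *Pou4f1*, 3.17 for *Gata3* and 1.31 for *Tal1*, and -2.79 for *Isl1*. Among the forebrain factors it was 4.41 for *Six3*, 4.03 for *Emx2*, 3.96 for *Lhx2* and 2.14 for *Bcl11b*. Among the midbrain and isthmus factors it was 1.82 for *Pax7*, 1.54 for *Lmx1b* and -0.68 for *En2*, and among the cerebellar factors 2.66 for *Meis2*, 0.79 for *Irx2*, 0.69 for *Foxp2* and -0.86 for *Lhx5*. The *Emx2* and *Isl1* values rest on few counts in Cb (1 and 20, and 6 and 1, in Cb-N and Cb-T). No group held enough libraries for a search for single outlying libraries.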

How the results depend on the processing

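The number of factors called in Cb was 15, and it was 7 of the 20 factors tested with a minimum mean count of 50 and 26 without the fold limit. The 8 calls missing under the stricter filter were of genes that this filter leaves untested. In F/M it was 1, and 14 without the fold limit, and between 0 and 3 with a library left out, where Cb gave 13 to 15, the baseline 41 to 42 and the interaction 15 to 19. Over all genes the counts of calls moved past 1.5 times without the fold limit, to 13459 from 7020 in the baseline, 9442 from 1835 in Cb, 4541 from 581 in F/M and 4816 from 1331 in the interaction. With that minimum they were 897, 259 and 877 in Cb, F/M and the interaction, and DESeq2 gave 365 in F/M. With the replicate number as a block, 41, 15, 1 and 17 factors were called in the baseline, Cb, F/M and the interaction, and over all genes 7023, 1834, 607 and 1346, so the block changed no count of factors. The fit of all 12 libraries also called *Emx2*, *Sox14* and *Isl1* in Cb, 18 in all, and without the filter *Emx2* and *Phox2a* were called there, 17 in all. For each called factor the log2 fold change was followed under the other tests, size factors, filters and block. The lowest and highest values with a library left out were added. The fit of all 12 libraries, the setting without the fold limit and genes that a filter left untested were not counted. Of these values, 110 of 112 in Cb, 7 of 8 in F/M, 315 of 316 in the baseline and 128 of 131 in the interaction kept their direction and call, and none reversed. The exceptions were *Pax2* (-0.56) and *Tlx3* (-0.52) in Cb, *Nkx2-1* (0.54) in F/M, *Pax5* (-0.55) in the baseline and *En2* (-0.55) in the interaction, each with a library left out, and *Isl1* in the interaction without the filter (-2.77) and with a library left out. Over all fits that left out a library, the *Pax2* and *Tlx3* calls in Cb were each kept in 4 of 6. The *Isl1* call in the interaction was kept in 6 of 12. The cause of these losses was not tested. Depth limits what can be said of the factors that were not tested in Cb.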

Other observations

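Among glial lists that none of the 47 factors represents, 6 of 8 microglial genes were upregulated in Cb and 4 of 8 in F/M. Over all tested genes 8.54% were upregulated in Cb and 2.63% in F/M. The microglial genes summed to 350 to 361 CPM in F/M-N and 468 to 472 CPM in F/M-T. Of the others, 2 of 6 astrocyte genes (*Gfap* and *Aqp4*) were called in Cb and 1 in F/M, and the summed level was 3190 to 3210 CPM in Cb-N and 4630 to 4660 CPM in Cb-T. The 6 oligodendrocyte genes summed to 4530 to 4640 CPM in Cb-N and 5950 to 6010 CPM in Cb-T, and to 5790 to 5950 CPM in F/M-N against 5770 to 5930 CPM in F/M-T. None of the 6 was called in either area. In F/M, none of 5 dopamine neuron genes and 1 of 3 glycinergic genes (*Slc6a5*) was called.

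Of the other regional factors 40 were tested for the interaction. Among them 6 were called with the higher and 5 with the lower change in Cb, beside 6.41% and 1.2% of all tested genes. The largest differences were those of *Otp* of the hypothalamus (4.96, adjusted p = 0.0024 in edgeR's quasi-likelihood test), *Prrxl1* (3.74, adjusted p = 0.005) and *Tcf7l2* (2.84, adjusted p = 6.3e-20), and the largest of the 5 was that of *Pax3* (-1.42, adjusted p = 0.032). *Otp* had 0 CPM in every Cb-N library and 0.201 to 0.295 CPM in Cb-T, and *Prrxl1* at most 0.0464 and 0.483 to 0.621 CPM, so both rest on few counts and the *Otp* value is no bound. Over the factors with a mean of at least 1 CPM, the median coefficient of variation between replicates was 6.91% in Cb-N (20 factors, at most 22.5%), 7.87% in Cb-T (27, at most 29.8%), 5.2% in F/M-N (36, at most 41%) and 7.05% in F/M-T (36, at most 23.2%). Factors under 1 CPM, some of them called, are not in these values.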
